A study of Rattus norvegicus with 22 samples.

Results

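The rat metallothionein genes were followed in contused and uninjured spinal cord through every probe set of the array that carries the symbol Mt2A, Mt3, Mt1, Mt1a or Mt1m. Of the 31042 probe sets tested, 3 carry 1 such symbol alone, 1 each for Mt2A, Mt3 and Mt1, and RefSeq gives Mt1a as a synonym of Mt1. No probe set carried Mt1m. A further probe set is annotated with 3 symbols at once (Mt1f, Ttr and Mt1), so it is called the multi-symbol probe set and no gene is named for it. The members are thus 3 of the 14217 genes with a probe set of their own, and the rule chose them by name and not by value.

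Metallothioneins are small, cysteine-rich proteins that bind zinc and copper and scavenge oxidants. In brain and spinal cord the metallothioneins 1 and 2 are made mainly by astrocytes, with microglia, macrophages and endothelium joining in after damage. Their genes are switched on by the zinc-sensing transcription factor Mtf1, by glucocorticoids, by interleukin 6 acting through Stat3 and by oxidants. Metallothionein 3, first described as a growth inhibitory factor of neurons, is made in neurons and astrocytes and responds little to metals.

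Each of the 22 samples was measured on 1 Affymetrix array. A 10 g weight with a tip of 2.5 mm was dropped from 25 mm on the cord at thoracic level 10, and 24 h later the perfused cord was taken. The 5 treated contused groups were clenbuterol, a β2-adrenoceptor agonist (150 mg/kg, 2 arrays), X-ray (10 Gy, 3 arrays), tempol, a superoxide dismutase mimetic (275 mg/kg, 3 arrays), buthionine sulfoximine or BSO, an inhibitor of glutathione synthesis (150 mg/kg, 3 arrays), and tempol with BSO at the same doses (3 arrays). Clenbuterol, X-ray and tempol were given 20 min after the contusion and BSO 24 h before it. Contused cord without an agent had 2 arrays (contusion). Of the uninjured groups, laminectomy, the surgery that opens the spinal canal without the weight drop, had 3 arrays and normal cord 3. Rat strain, age and sex, the cord level and collection time of the uninjured groups, any vehicle injection and whether each array stands for 1 rat are not stated in the labels. The p-values therefore reflect how much these arrays differ, which may be technical. The clenbuterol dose is far above usual doses of this drug and is given as the labels state it.

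Values are the deposited signal intensities on a linear scale, and each array had the same trimmed mean. The probe sets that report the hybridization spikes, bacterial and phage transcripts added in known amounts, were weak on 5 arrays, with a mean log2 signal of 10.69 to 10.96 (4 contused arrays and laminectomy 1), against 11.71 to 13.88 on the others. Laminectomy 2 and normal 1 were least like the other arrays, with a median correlation to them of 0.667 and 0.685, against up to 0.785 elsewhere. Summed over 12 neuron markers the signal was 5753 to 20522 in contused and 18074 to 39520 in uninjured arrays, and over 8 oligodendrocyte markers 28535 to 78321 and 40352 to 112604, so the tissue carried the markers of spinal cord in all groups. In bulk tissue fewer cells of a type and less RNA per cell cannot be told apart.

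The genes lie close together on chromosome 19 of the GRCr8 assembly, all on the minus strand, and the 250 bases before the annotated start of Mt1, Mt2A and Mt3 are shown because the elements that answer zinc are found there. The sequences are from RefSeq and run 5′ to 3′. Capitals mark each match to the core of the metal response element, to which Mtf1 binds, searched on both strands as TGCACNC or TGCGCNC. Mt1 is chr19:10832976-10833225, Mt2A chr19:10838709-10838958 and Mt3 chr19:10856081-10856330.
Mt1: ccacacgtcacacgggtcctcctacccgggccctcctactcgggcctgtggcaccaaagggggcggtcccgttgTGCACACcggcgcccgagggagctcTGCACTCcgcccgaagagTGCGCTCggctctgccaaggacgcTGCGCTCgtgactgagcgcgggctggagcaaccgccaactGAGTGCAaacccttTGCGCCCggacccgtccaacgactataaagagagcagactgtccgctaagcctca
Mt2A: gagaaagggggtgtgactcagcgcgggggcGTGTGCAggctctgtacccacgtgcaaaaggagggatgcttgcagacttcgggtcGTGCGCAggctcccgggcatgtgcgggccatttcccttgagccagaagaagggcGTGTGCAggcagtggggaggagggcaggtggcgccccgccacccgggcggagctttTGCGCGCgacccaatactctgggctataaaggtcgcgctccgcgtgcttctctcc
Mt3: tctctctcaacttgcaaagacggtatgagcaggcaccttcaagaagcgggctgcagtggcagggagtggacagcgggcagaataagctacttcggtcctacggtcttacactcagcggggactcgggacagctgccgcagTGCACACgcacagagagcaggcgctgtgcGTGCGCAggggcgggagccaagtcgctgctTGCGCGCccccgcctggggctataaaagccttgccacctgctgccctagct
The Mt1 window held 6 cores, that of Mt2A 4 and that of Mt3 3. Mt4, the squamous epithelial form of the family, had 1 in its window at chr19:10871832-10872081. At least 1 core was present in 20.6% of 33469 rat promoters of this length and 3 or more in 1.17%. The core of the antioxidant response element, TGACNNNGC, was found once each in the Mt1 and Mt2A windows and not in those of Mt3 and Mt4, against 10.1% of all promoters. No match overlapped another. The match to the letters describes the sequence and does not show that a factor binds.

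**Figure D1:**
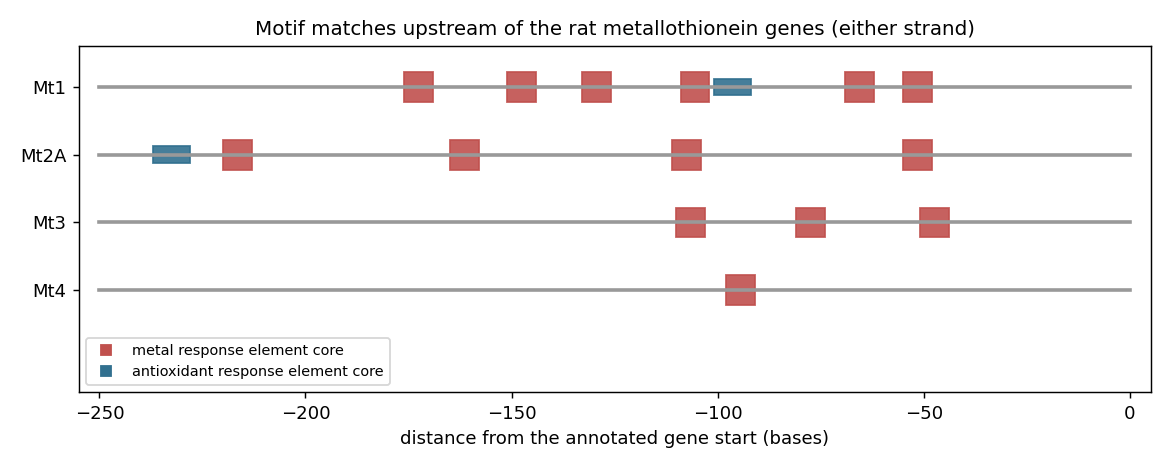
Matches to the metal response element core (red) and the antioxidant response element core (blue) in the 250 bases before the annotated start of 4 rat metallothionein genes, drawn by distance from that start in bases. Mt1 has 6 red boxes, Mt2A 4, Mt3 3 and Mt4 1, and blue boxes stand only in the windows of Mt1 and Mt2A.

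Mt2A, the main stress-inducible form, was higher in most contused arrays than in normal cord, where it was more even. It was among the brightest probe sets of both, at percentiles of 99.59 to 99.98 in contused and 99.87 to 99.95 in normal arrays. Its signal was 33400.5 and 24219.4 in clenbuterol arrays, 27622.9, 10018.7 and 28906.5 in X-ray arrays, and 3527.0, 21013.4 and 24682.5 in tempol arrays. It was 10075.6, 29204.4 and 17939.4 in BSO arrays and 9741.0, 26802.4 and 14462.0 in arrays of tempol with BSO. Contusion arrays had 15236.4 and 12911.6, laminectomy arrays 786.5, 20593.8 and 16634.1, and normal arrays 9708.6, 8534.5 and 8803.4. Thus 15 of the 16 contused arrays lay above all 3 normal arrays and 1, tempol 1, lay below them. The laminectomy arrays were widely spread, and laminectomy 1 was the lowest of the 22 arrays. Only 8 of 16 contused arrays lay above all 6 uninjured arrays.

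In the fit of 8 group means with limma, Mt2A was 1.18 ± 0.56 (SE) higher on the log2 scale in the mean of the 6 contused groups than in the mean of the 2 uninjured groups, a 2.26-fold difference that did not pass the threshold of 0.05 (unadjusted p = 0.0487, adjusted p = 0.479, Benjamini-Hochberg over all 31042 probe sets). In this comparison 99 probe sets were called, 0.319% of those tested. Without laminectomy 1 the Mt2A difference was 0.42, with an adjusted p of 0.726 in the limma fit. Against normal cord alone, a choice made with the values in view, Mt2A was 0.94 ± 0.73 higher (limma adjusted p = 0.771, where 117 probe sets or 0.377% were called). Against laminectomy alone, also chosen later, it was 1.42 ± 0.73 higher (limma adjusted p = 0.673, where 4 probe sets or 0.0129% were called). The 2 contusion arrays lay above the 3 normal arrays without overlap, by 0.64 ± 1.06 on the log2 scale (limma adjusted p = 0.973, with 15 calls or 0.0483%). In 2 arrays against 3 a full separation in either direction arises in a share of 0.2 of regroupings. The lack of overlap between groups of 2 or 3 arrays, here and below, thus carries little weight. The contusion minus laminectomy difference was 1.12 ± 1.06, and it was −0.40 without laminectomy 1 (limma adjusted p = 0.958 with all arrays, with 1 call or 0.00322%). Laminectomy minus normal was −0.48 ± 0.95, and it was 1.04 without laminectomy 1 (limma adjusted p = 0.996, with 2 calls or 0.00644%). Several of these comparisons share contused, laminectomy or normal arrays, so the differences are not independent of each other.

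**Figure D2:**
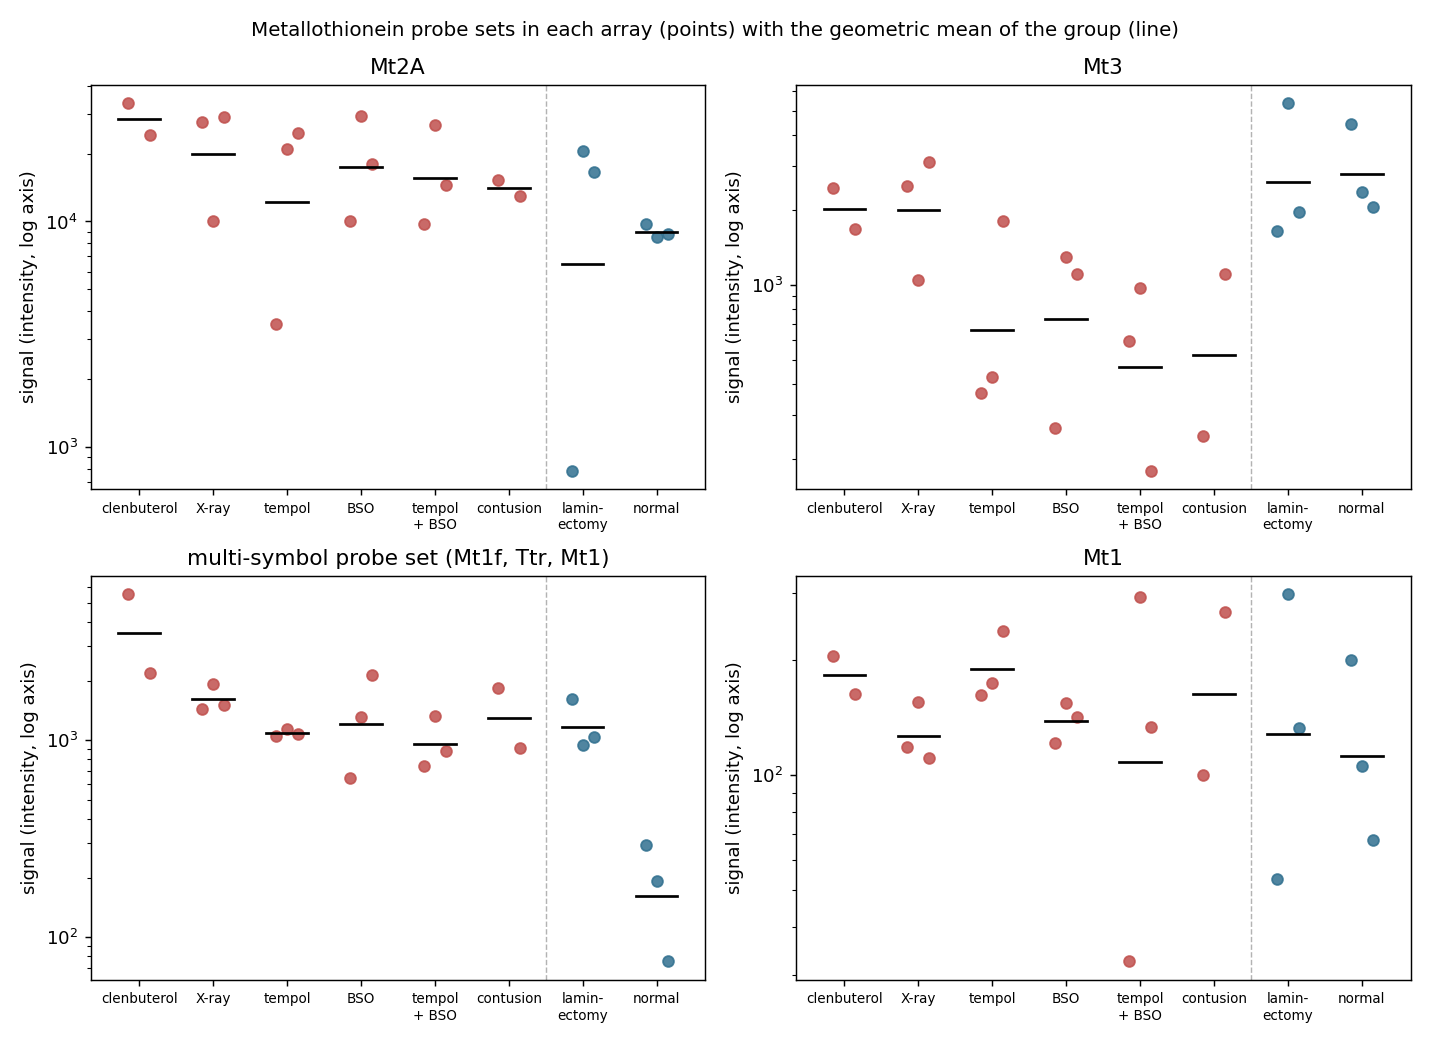
Signal intensity (log axis) of Mt2A, Mt3, the multi-symbol probe set and Mt1 in each of the 22 arrays, by group, with contused groups in red and uninjured groups in blue. Points are arrays and lines the geometric mean of the group. Mt3 is highest in normal and laminectomy cord, the multi-symbol probe set is lowest in the 3 normal arrays, and Mt2A has 1 laminectomy array at 786.5.

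Mt3, the form of neurons and astrocytes, ran the other way. It had signals of 2453.2 and 1671.1 in clenbuterol arrays, 2484.4, 1041.9 and 3103.9 in X-ray arrays, and 369.0, 428.9 and 1802.9 in tempol arrays. It had 267.6, 1295.1 and 1110.9 in BSO arrays and 597.1, 967.8 and 179.8 in arrays of tempol with BSO. The contusion arrays had 247.3 and 1103.3, the laminectomy arrays 1644.8, 5351.8 and 1962.7, and the normal arrays 4408.1, 2352.0 and 2060.1. No contused array exceeded all uninjured arrays, 11 of 16 lay below all 6 of them, and 13 of 16 lay below all 3 normal arrays. The arrays between were the clenbuterol and X-ray arrays other than X-ray 2, and tempol 3.

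On the log2 scale Mt3 was −1.60 ± 0.48 in all contused minus all uninjured groups, 3.03-fold lower, with a 95% interval of −2.60 to −0.60. The difference did not pass over all probe sets (unadjusted p = 0.00334, limma adjusted p = 0.194). Over the alternative settings it stayed between −1.78 and −1.16, with limma adjusted p from 0.0966 to 0.695. The difference was −1.65 ± 0.62 against normal cord and −1.55 ± 0.62 against laminectomy, and limma gave adjusted p-values of 0.383 and 0.592. Both contusion arrays lay below every uninjured array, and the share of all probe sets that separate in this way was not counted. Contusion minus normal was −2.41 ± 0.90 and contusion minus laminectomy −2.31 ± 0.90, with limma adjusted p-values of 0.588 and 0.925. Without contusion 1 these 2 differences were −1.33 and −1.23. Laminectomy minus normal was −0.10 ± 0.81, and the arrays overlapped.

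The 4 contused arrays with the weakest spikes held the 4 lowest Mt3 signals, 179.8 to 369.0, against 428.9 to 3103.9 in the other 12 contused arrays. Laminectomy 1, the uninjured array with a weak spike, had 1644.8, and the other 5 uninjured arrays 1962.7 to 5351.8. Among arrays with weak spikes the 4 contused ones were below laminectomy 1, the only uninjured one, and among the rest the ranges overlapped. The part of the spike signal in the Mt3 values was not tested. Without these 5 arrays Mt3 was −1.28 ± 0.42 in contused minus uninjured groups (limma adjusted p = 0.351), and Mt2A was 0.62 ± 0.35 (limma adjusted p = 0.588). With the spike signal as a covariate Mt3 was −1.16 ± 0.33 (limma adjusted p = 0.166) and Mt2A 1.61 ± 0.47 (limma adjusted p = 0.183). These alternatives were chosen after the data were seen.

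The inducible form was set against the neural form within each array, where a factor that scales all probe sets of an array alike cancels. Log2 Mt2A minus log2 Mt3 was 3.77 and 3.86 in clenbuterol arrays, 3.47, 3.27 and 3.22 in X-ray arrays, 3.26, 5.61 and 3.78 in tempol arrays, 5.23, 4.50 and 4.01 in BSO arrays and 4.03, 4.79 and 6.33 in arrays of tempol with BSO. It was 5.95 and 3.55 in contusion arrays, −1.06, 1.94 and 3.08 in laminectomy arrays and 1.14, 1.86 and 2.10 in normal arrays. All 16 contused arrays lay above all 6 uninjured arrays. The mean was 4.29 ± 1.01 in contused arrays (SD, n = 16) and 1.51 ± 1.41 in uninjured arrays (SD, n = 6), a difference of 2.78 or a 6.86-fold higher ratio. The share of all probe sets that separate as fully when set against Mt3 was not counted. The separation is therefore not shown to be particular to Mt2A. In the two-sided exact permutation test over all 74613 regroupings of the arrays p was 2.68e-05, the smallest that this design can give. That test treats the arrays of differently treated contused groups as exchangeable, and likewise laminectomy with normal arrays. Their spread was unequal, with an SD of 2.14 in laminectomy, 0.50 in normal and 0.06 in clenbuterol arrays. The p-value thus rests on this pooling and not on replicates of a single condition.

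Because every contused array lay above every uninjured array, the contused arrays necessarily lay above each uninjured group taken alone. The ratio was 2.59 higher than in normal cord and 2.97 higher than in laminectomy cord. The exact permutation p was 0.00206 in both cases, the smallest possible with 16 arrays against 3. The full separation fixed this p in advance, so it is no further support. Leaving out each array in turn gave 2.26 to 3.09. Of the contused arrays the 4 with weak spikes had ratios of 3.26 to 6.33 and the other 12 had 3.22 to 5.61, with medians of 5.59 and 3.82. Without the 5 arrays with weak spikes the difference was 1.96. Here 12 of 12 contused arrays lay above all 5 uninjured arrays (exact permutation p = 3.23e-04, again the smallest possible). The full separation fixed that outcome in advance too. The ratio differed by −0.38 between laminectomy and normal cord, with overlapping arrays. A ratio within an array shows that the pair of genes changed unequally, and not which of them changed. Pairs of groups of 2 or 3 arrays cannot reach the 0.05 level in this test, so the contused groups are given by their values.

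**Figure D3:**
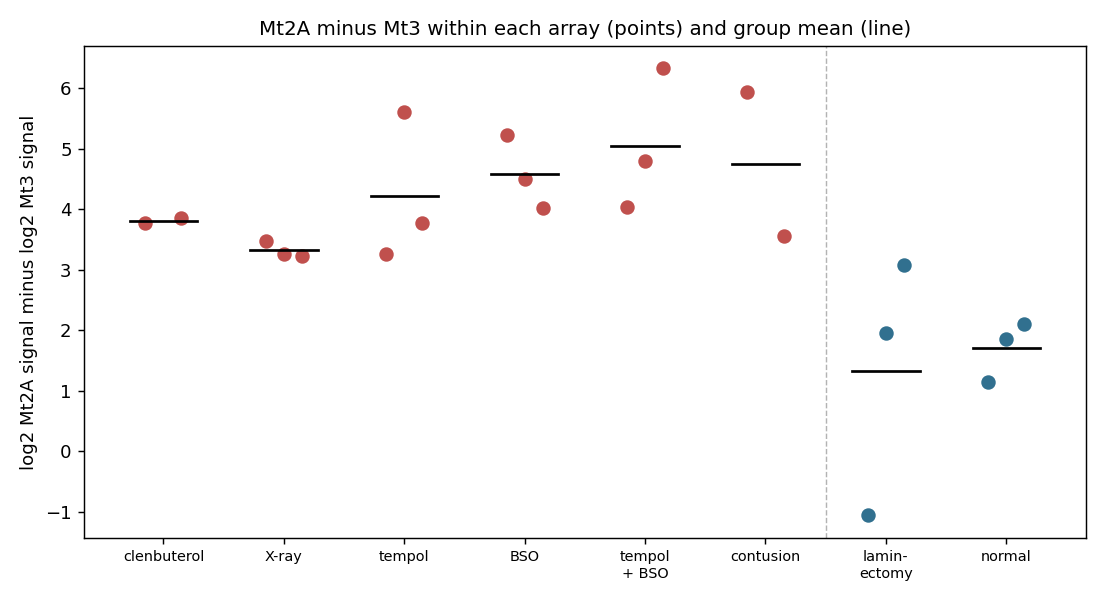
Log2 Mt2A signal minus log2 Mt3 signal within each array (points) with the mean of the group (line), contused groups in red and uninjured groups in blue. All 16 contused arrays, 3.22 to 6.33, lie above the 6 uninjured arrays, −1.06 to 3.08.

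Of the remaining inducible forms, Mt1 gave a dim signal in the probe set with its symbol alone. This signal was 32.5 to 298.4 over the 22 arrays, on arrays whose median probe set had 142.9 to 164.9. The contused arrays had a lowest, median and highest Mt1 signal of 32.5, 155.2 and 293.2, and the uninjured arrays 53.6, 119.2 and 298.4. The ranges lay on top of each other, and the log2 difference was 0.30 ± 0.41 (limma adjusted p = 0.843). Log2 Mt1 minus log2 Mt3 was 1.90 higher in contused than in uninjured arrays (exact permutation p = 0.00134, adjusted p = 0.00201 over the 3 pairs of genes). This pair shares Mt3, which was −1.60 in the limma fit, with the pair of Mt2A and Mt3, so it is not a separate result. Log2 Mt2A minus log2 Mt1 differed by 0.87 (exact permutation p = 0.102, adjusted p = 0.102). No detection calls were used here, so how much of the Mt1 signal is background was not tested. The multi-symbol probe set, which also carries the Mt1 symbol, behaved otherwise, so these values do not settle the level of Mt1.

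No probe set with a metallothionein symbol alone passed in the comparisons of contused, laminectomy and normal cord, and the multi-symbol probe set did. It had signals of 5521.5 and 2199.6 in clenbuterol arrays, 1447.0, 1940.7 and 1506.7 in X-ray arrays, and 1055.6, 1135.7 and 1072.4 in tempol arrays. It had 639.5, 1316.5 and 2131.9 in BSO arrays and 736.4, 1326.3 and 885.3 in arrays of tempol with BSO. The contusion arrays had 1835.2 and 911.9, the laminectomy arrays 1625.7, 941.6 and 1035.1, and the normal arrays 293.1, 194.0 and 75.4. Every contused and every laminectomy array lay above the 3 normal arrays.

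On the log2 scale the multi-symbol probe set rose by 3.15 ± 0.42 in all contused groups against normal cord, 8.91-fold, with 16 of 16 arrays above (limma adjusted p = 0.00111). This comparison was chosen with the values in view, and the share of all probe sets that separate in this way was not counted. The multi-symbol probe set passed there in each of the 29 alternatives, with limma adjusted p up to 0.0203. Against all uninjured groups it rose by 1.73 ± 0.32, 3.33-fold (limma adjusted p = 0.0222). That call was lost without laminectomy 2, laminectomy 3, contusion 1 or normal 3, with limma adjusted p of 0.0515 to 0.0696, and without the 5 arrays with weak spikes (limma adjusted p = 0.106). Against laminectomy the contused groups differed by 0.31 ± 0.42 (limma adjusted p = 0.894, 95% interval −0.57 to 1.20). Laminectomy alone was 2.84 ± 0.55 above normal cord, 7.18-fold and without overlap, at a limma adjusted p of 0.126. This difference passed with the filter on low signal (limma adjusted p = 0.0308) and with trend and robust eBayes (limma adjusted p = 0.0253). Contusion minus normal was 2.99 ± 0.61 (limma adjusted p = 0.134). It passed with the same pair of settings and with array weights, at limma adjusted p of 0.0244 to 0.0389.

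The gene behind this signal cannot be told apart from these values. Ttr encodes transthyretin, the thyroxine carrier of the choroid plexus and blood, and has a probe set with its symbol alone. That probe set had 71.3 to 695.8 in contused arrays, 349.3 to 456.9 in laminectomy arrays and 232.1 to 243.0 in normal arrays. Its log2 difference between all contused groups and normal cord was 0.19 ± 0.43 (limma adjusted p = 0.942). Levels of different probe sets were not compared.

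**Figure D4:**
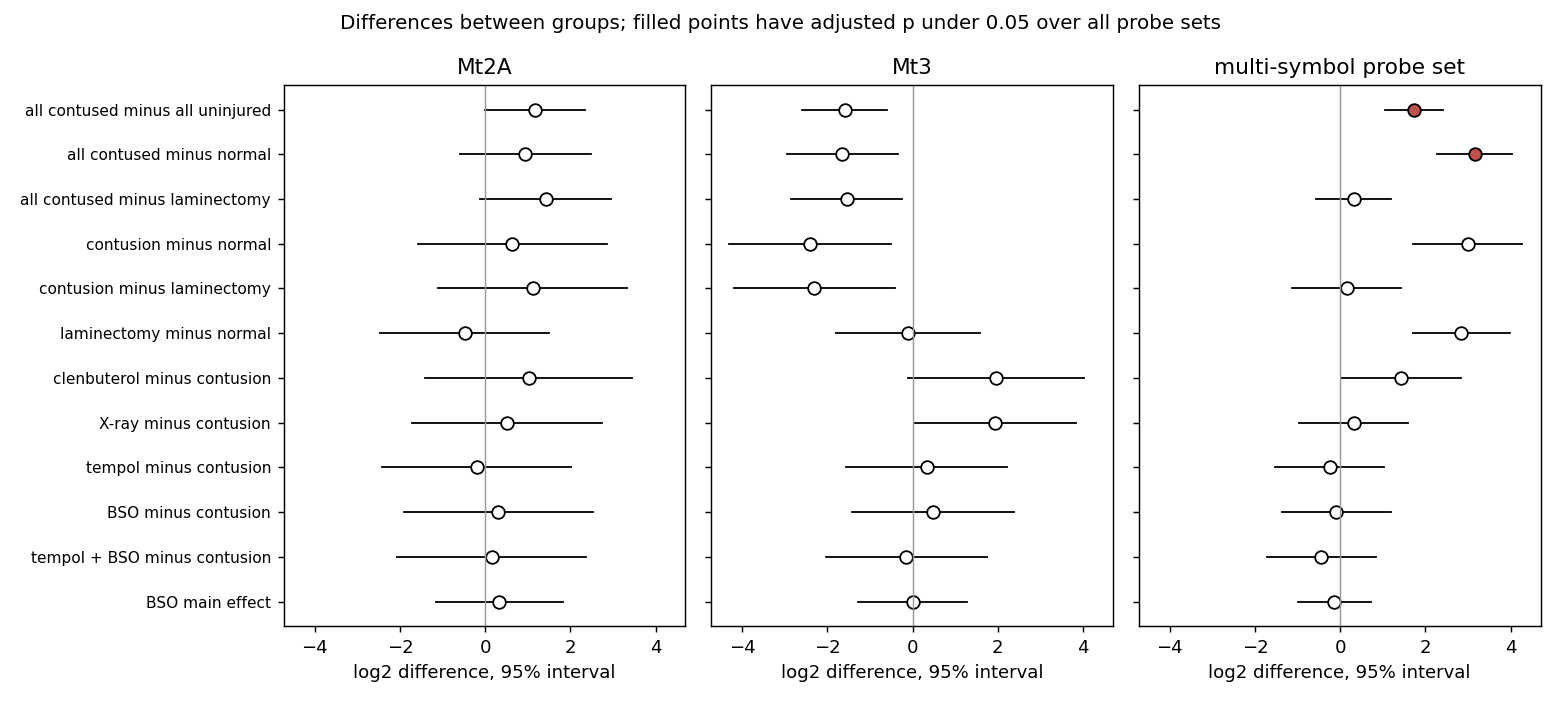
Log2 differences of Mt2A, Mt3 and the multi-symbol probe set (points) with 95% intervals from limma for 12 comparisons, with the first-named group minus the second. Filled points passed the adjusted threshold, and only the multi-symbol probe set has them, at 1.73 against all uninjured groups and 3.15 against normal cord.

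The treatments were compared with contusion alone to see whether an agent changed the metallothioneins of injured cord. None of the 9 treatment comparisons passed for Mt2A, Mt3, Mt1 or the multi-symbol probe set in limma. The smallest limma adjusted p was 0.999 for Mt2A, 0.942 for Mt3 and 0.929 for the multi-symbol probe set. Over all probe sets clenbuterol minus contusion gave 1 call (0.00322%) and the other 8 comparisons gave 0 calls (0%). In each of those 8 comparisons 875 to 1492 probe sets had an unadjusted p under 0.05. Each count is below the 0.05 share of all 31042 probe sets that chance alone would give. A moderated F test across the 6 contused groups gave limma adjusted p of 1.00 for Mt2A, 0.909 for Mt3 and 0.920 for the multi-symbol probe set, and 0 calls (0%) over all probe sets.

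Within these limits the groups were ordered as follows. The geometric mean of Mt2A was highest with clenbuterol, followed by X-ray, BSO, tempol with BSO, contusion and tempol, and then by normal and laminectomy cord. Each of the 7 gaps between neighbours in this order was smaller than the larger SD of the pair. For Mt3 the order was normal, laminectomy, clenbuterol, X-ray, BSO, tempol, contusion and tempol with BSO. The gap of 1.46 on the log2 scale between X-ray and BSO exceeded the larger SD, 1.25, and its arrays overlapped, whereas the other 6 gaps were smaller than the SD. For the multi-symbol probe set the gaps beyond the SD were those between clenbuterol and X-ray, 1.11, and between tempol with BSO and normal cord, 2.55, both without overlap. Groups this small often separate by chance, and the share of all probe sets that do so was not counted.

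Clenbuterol minus contusion was 1.95 ± 0.99 for Mt3 (unadjusted p = 0.0631, limma adjusted p = 0.942), and the 2 clenbuterol arrays lay above both contusion arrays. It was 0.88 without contusion 1 and 3.03 without contusion 2. X-ray minus contusion was 1.94 ± 0.90 for Mt3 (unadjusted p = 0.0451, limma adjusted p = 1.00), with 2 of 3 X-ray arrays above. It was 0.86 without contusion 1, which is a weak-spike array, and 3.02 without contusion 2. For the multi-symbol probe set clenbuterol minus contusion was 1.43 ± 0.67 (unadjusted p = 0.0461, limma adjusted p = 0.929), again with both arrays above. BSO, which depletes glutathione, the other large thiol store of the cell, had no effect that passed. The mean of BSO and of tempol with BSO, minus the mean of tempol and of contusion, was 0.33 ± 0.71 for Mt2A (95% interval −1.16 to 1.82) and −0.00 ± 0.61 for Mt3 (95% interval −1.27 to 1.27), both at limma adjusted p = 1.00. For Mt1 it was −0.52 ± 0.52 (limma adjusted p = 1.00). The interaction of tempol and BSO was 0.04 ± 1.42 for Mt2A and −0.96 ± 1.21 for Mt3, both at limma adjusted p = 1.00. For Mt2A and Mt3 the intervals are wide enough to hold changes of more than 2-fold in either direction.

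Astrocytes and neurons are the cells that make Mt3, and the summed signal of both marker lists was lower in most contused arrays, as Mt3 was. All 8 oligodendrocyte markers, of a cell not named here as a source of Mt3, were lower as well. Their median was −0.60 and 1 passed in limma, where 0.319% of all probe sets were called. All 8 were higher with clenbuterol and with X-ray than in contusion alone. The match is thus not particular to the cells that make Mt3. Summed over 12 astrocyte markers the signal had a lowest, median and highest value of 18834, 29800 and 46210 in contused arrays and 35204, 47959 and 78780 in uninjured arrays. The sums were 41927 to 45023 with clenbuterol and 43289 to 46210 with X-ray, the contused groups with the highest Mt3, against 25364 to 28896 in contusion arrays. In the other 3 treated groups the sums ran between 18834 and 35801. Of the 12 astrocyte markers 9 were lower and 3 higher in contused than in uninjured groups. Aqp4, the water channel of astrocyte end-feet, passed, at −1.23 ± 0.26 (limma adjusted p = 0.0482, where 0.319% of all probe sets were called), and the median of the list was −0.52, against 0.00 over all probe sets. Gfap, the intermediate filament of astrocytes, had −0.54 ± 0.22 (limma adjusted p = 0.388) and followed Mt3 only in part. Its median was 12795.5 in contused, 27486.8 in laminectomy and 12396.1 in normal arrays, so laminectomy stood highest, unlike for Mt3. Among contused arrays Gfap was 18399.5 to 20095.2 with X-ray, above the normal arrays, 9951.8 to 13415.2. It was 12424.5 and 18984.6 with clenbuterol and 12101 and 12442.3 in contusion arrays. All 12 neuron markers were lower and 1 passed, the light neurofilament Nefl, at −1.49 ± 0.29 (limma adjusted p = 0.0319), with a list median of −0.73. Among the contused groups the neuron sums were not ordered as Mt3 was. Tempol with BSO, with the lowest Mt3 mean, had the highest median neuron sum, 16586, X-ray had 11312 to 12339 and contusion 5753 to 11557. None of these markers was listed at 0, and their part in the Mt3 values was not tested.

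Marker sums of macrophages and neutrophils were lowest in normal arrays, as the multi-symbol probe set was, but they did not follow it in every group. The sum over 10 microglia and macrophage markers was 9220 to 18076 in contused arrays, 11079 to 14190 in laminectomy arrays and 6198 to 7046 in normal arrays. Clenbuterol arrays, with the highest probe set signals, had the lowest contused sums, 9220 and 9266. In contused against uninjured groups 3 of these 10 passed upwards, namely Gpnmb, Arg1 and Cd14, with a list median of 0.75 (0.319% of all probe sets were called). The sum over 3 neutrophil markers was 718 to 3724 in contused, 498 to 604 in laminectomy and 190 to 268 in normal arrays. The sum over 3 red cell markers was 3196 to 16561 in contused, 1018 to 1271 in laminectomy and 664 to 1516 in normal arrays, so laminectomy and normal arrays overlapped there and not in the probe set. Their part in the probe set's values was not tested.

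The rest of the zinc and copper system was examined through a list of 35 genes of metal sensing, transport and storage other than metallothioneins, of which 32 were measured. In all contused against all uninjured groups none passed in limma, where 4 had an unadjusted p under 0.05 and 0.319% of all probe sets were called. The list median was 0.22, against 0.00 over all probe sets. Mtf1, the zinc sensor that drives Mt1 and Mt2A, had a lowest, median and highest signal of 108.3, 479.5 and 912.9 in contused arrays and of 264.2, 584.5 and 887.9 in uninjured arrays, with a log2 difference of −0.25 ± 0.36 (limma adjusted p = 0.853). Slc30a1, a zinc exporter of the cell membrane and itself an Mtf1 target, had a difference of 0.41 ± 0.39 (limma adjusted p = 0.754). Slc39a14, a zinc importer that inflammation induces in liver, had 0.89 ± 0.34 (limma adjusted p = 0.338), with 9 of 16 contused arrays above all uninjured ones.

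Against normal cord, a comparison chosen with the values in view, 1 gene of the list passed. Slc39a1, a zinc importer of the cell membrane, had 479.1, 796.2 and 1604.9 as lowest, median and highest signal in contused arrays, 602.6 to 781.0 in laminectomy arrays and 206.7 to 359.7 in normal arrays. It rose by 1.52 ± 0.31 on the log2 scale (limma adjusted p = 0.0331), where 0.377% of all probe sets were called. All contused and laminectomy arrays lay above the normal arrays, as for the multi-symbol probe set.

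Genes of the other known inducers of metallothioneins showed mostly small differences between contused and uninjured groups. Of 11 glucocorticoid response genes 10 were measured and none passed in limma (1 had an unadjusted p under 0.05), with Fkbp5, a chaperone of the glucocorticoid receptor, at 0.11 ± 0.23 (limma adjusted p = 0.907). Of 14 genes of interleukin 6 and Stat3 signalling 13 were measured and none passed in limma (3 had an unadjusted p under 0.05). Il6 itself lay above all uninjured arrays in 13 of 16 contused arrays, with a difference of 1.65 ± 0.47 (limma adjusted p = 0.172), and Socs3, the feedback inhibitor of Stat3, had 0.70 ± 0.56 (limma adjusted p = 0.704). Of 16 genes of oxidative stress and glutathione 12 were measured and 1 passed, where 0.319% of all probe sets were called. This was Hmox1, heme oxygenase, whose lowest, median and highest signal was 1308.1, 1683.7 and 3038.6 in contused arrays and 120.1, 386.9 and 724.4 in uninjured arrays. It rose by 2.33 ± 0.24 on the log2 scale (limma adjusted p = 5.69e-05), and all 16 contused arrays lay above all 6 uninjured arrays. The catalytic and modifier subunits of the enzyme that BSO inhibits, Gclc and Gclm, had differences of 0.16 ± 0.29 and −0.09 ± 0.34, with limma adjusted p-values of 0.888 and 0.955.

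The genes whose levels ran most like each member were named by Pearson correlation of log2 signal over the 22 arrays, among 11219 probe sets, as a description in which all points share their array. For Mt3 these were Ttc3 (r = 0.86), Nacc2 (0.86), Aqp4 (0.85), Gpm6b (0.85) and Stmn1 (0.85). For Mt2A they were Endod1 (0.78), Cacul1 (0.76), Acsl4 (0.75), Timp3 (0.74) and Nsd1 (0.74). For the multi-symbol probe set they were Hopx (0.87), the lysosomal protease gene Ctsl (0.87), the immediate early gene Fos (0.86), the metalloproteinase inhibitor gene Timp1 (0.86) and Cystm1 (0.84). For Mt1 they were Mrps30 (0.80), Ppp1r7 (0.79), Kif5b (0.77), Mmadhc (0.74) and Rraga (0.72). No gene stood in the first 5 of more than 1 member. Between the members, Mt2A and Mt3 had r = 0.16 over all 22 arrays and 0.62 within the 16 contused arrays.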

How the data were processed

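Spinal cord RNA from 22 rat samples in 8 groups was measured on Affymetrix arrays, and the deposited values are linear signal intensities per probe set. The submitters' processing notes name RMA, but the deposited intensities are neither on a log2 scale nor quantile normalized and have 1 trimmed mean, so the authors' summary and scaling method is not stated by the labels. After 57 control probe sets were left out of 31099, log2 signals of 31042 were fitted as 8 group means with limma 3.58.1 in R 4.3.3 (lmFit, contrasts and eBayes, 14 residual degrees of freedom). Benjamini-Hochberg adjustment ran over all probe sets of a comparison, with a threshold of 0.05. The fit was also run on simulated arrays with independent normal noise and no weak-spike or outlying arrays. That run does not show how the fit handles such arrays. Differences between genes within an array were compared by two-sided exact permutation with scipy 1.17.1. Precision is limited by the 2 or 3 arrays per group.

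Genes were named from the platform annotation, in which 20826 probe sets have 1 symbol, 436 several and 9780 none. Metallothionein probe sets with 1 symbol were named, and the multi-symbol probe set was not. Of each gene list, up to 6 genes past the threshold by p were eligible, beside Mtf1, Slc30a1, Slc39a14, Hmox1, Gclc, Gclm, Gfap, Aqp4, Socs3, Il6 and Fkbp5 whatever their values, and the 5 genes most like each member. A list gene was read from its probe set of highest mean. Members, lists and tests were chosen with earlier results of these data known. Alternatives were quantile normalization, an added offset, a filter on low signal, trend and robust eBayes, array weights, a block on the replicate number, arrays left out and, added later, a covariate for the hybridization spikes. Replicate numbers did not pair the arrays: same-numbered arrays had a median correlation of −0.0047 in their deviations.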

Additional observations from a re-analysis of the deposited data

Results flagged for a closer look

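The Mt2A signal of laminectomy 1, 786.5, lay far below those of the other 5 uninjured arrays, 8534.5 to 20593.8. On the log2 scale its gap to the nearest of them was 0.730 of the whole range. This is above Dixon's critical value at the 95% level, a limit that chance passes now and then. The same array had a weak hybridization spike signal and the lowest uninjured Mt3 signal, 1644.8, but the highest uninjured signal of the multi-symbol probe set, 1625.7. The part of the spike signal in these values was not tested.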

How the results depend on the processing

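Of 866 alternative values for 42 results, 806 kept their direction and their side of the threshold, 50 turned in direction, 5 lost and 5 gained a call. The F tests among these results could not turn, since F is never negative. Most results lay far from the threshold, so keeping their side of it says little. The Mt2A minus Mt3 difference within arrays was 1.96 to 3.09 in every alternative. Differences not past the threshold turned most. For Mt2A without the 5 arrays with weak spikes, contusion minus laminectomy was −0.52, laminectomy minus normal 1.04, tempol minus contusion 0.82, tempol with BSO minus tempol −0.50 and the interaction −1.32. With the spike covariate tempol with BSO was −0.33 minus contusion and −0.011 minus tempol, with an interaction of −0.078. Tempol with BSO minus contusion was −0.14 after quantile normalization and −0.084 with the replicate block. For Mt3 without the 5 arrays, laminectomy minus normal was 0.22 and tempol minus contusion −0.33, and the BSO effect was 0.0070 after quantile normalization and 0.19 with array weights. For the multi-symbol probe set contusion minus laminectomy was −0.11 without the 5 arrays and −0.0040 without laminectomy 2 and normal 1. All contused minus all uninjured fell below the threshold without the 5 arrays, at 1.86. Contusion minus normal passed with the filter and with trend and robust eBayes at 2.99 and with array weights at 3.10, and laminectomy minus normal passed with the first pair at 2.84. The cause was not tested, beyond the filter testing fewer probe sets.

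Leaving out 1 array at a time gave these ranges. For Mt2A they were −0.10 to 2.25 for all contused minus laminectomy, −0.40 to 1.96 for contusion minus laminectomy, −1.32 to 1.04 for laminectomy minus normal, −0.70 to 0.70 for tempol minus contusion, −0.061 to 0.71 for BSO minus contusion, −0.24 to 0.49 for tempol with BSO minus contusion, −0.55 to 0.86 minus tempol, −0.56 to 0.21 minus BSO, −0.12 to 0.58 for the BSO effect and −0.86 to 0.54 for the interaction. For Mt3 they were −0.63 to 0.23 for laminectomy minus normal, 0.88 to 3.03 for clenbuterol minus contusion, 0.86 to 3.02 for X-ray minus contusion, −0.74 to 1.41 for tempol minus contusion, −0.60 to 1.56 for BSO minus contusion, −1.23 to 0.93 for tempol with BSO minus contusion, −1.01 to 0.24 minus tempol, −1.35 to 0.063 minus BSO, −0.54 to 0.54 for the BSO effect and −2.04 to 0.12 for the interaction. For the multi-symbol probe set they were 1.46 to 1.95 for all contused minus all uninjured and −0.35 to 0.65 for contusion minus laminectomy, and for Mt1 −0.011 to 0.61 for all contused minus all uninjured. With the replicate block, all contused minus all uninjured was 1.26 for Mt2A (limma adjusted p = 0.405), −1.59 for Mt3 (0.235) and 1.71 for the multi-symbol probe set (0.0462), and it changed no call among these. An exchange of probe sets could not be run, since each member has 1 probe set with its symbol alone. The multi-symbol probe set also carries the Mt1 symbol and differed from the Mt1 probe set, but its gene is not known. Where a group is left with 1 array, it is assumed to vary like the others. The weak signals of Mt1 and Mt4 limit what can be said of them.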

Other observations

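Mt4, the metallothionein of squamous epithelia, gave 13.1 to 137.7 in contused arrays and 13.2 to 97.2 in uninjured arrays. Its log2 difference between all contused and all uninjured groups was −0.34 ± 0.50 (limma adjusted p = 0.864). Within the 16 contused arrays the log2 signal of the multi-symbol probe set had r = 0.52 with Mt3 and 0.47 with Mt2A, against −0.12 and 0.27 over all 22 arrays.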
